A study of Mus musculus with 20 samples.

Results

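The 48 genes described here encode the machinery of mitosis: the kinases and cyclins that start it, the kinetochore, the spindle, partners of the anaphase-promoting complex and the proteins of cytokinesis. They were chosen by name, from known function, in 8 functional subgroups, and are 48 of the 48795 genes in the deposited table. All 48 were expressed highly enough to be tested in every comparison. They lie on 18 chromosomes, and 0 of the 48 are on chromosome 16, where both mouse strains carry their duplication.

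RNA was sequenced from whole hearts of mouse embryos at E13.5 (E, embryonic day), with 5 hearts in each of 4 groups. Dp3Tyb embryos carry the Dp(16Mir802-Zbtb21)3TybEmcf duplication and Ts1Rhr embryos the shorter Dp(16Cbr1-Fam3b)1Rhr duplication, both of which add a copy of a chromosome 16 segment orthologous to part of human chromosome 21. The controls were wild-type (WT) hearts, a separate group for each strain, taken as the littermates that the series describes. All mice were on a C57BL/6J background, and no other allele or treatment was named for these groups. The labels of all 5 Dp3Tyb hearts and of Ts1Rhr replicates 1 and 2 name heart defects, those of Ts1Rhr replicates 3 to 5 name none, and the study describes Ts1Rhr as a strain without them, so the 5 Ts1Rhr hearts were kept together by genotype. The comparison of both strains with their own controls asks which transcriptional changes accompany the heart defects, and decreased proliferation is among the changes the study examined.

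As background, mitotic genes are transcribed in a wave late in the cell cycle. Cyclin B and CDK1 drive entry into mitosis, the kinetochore couples chromosomes to spindle microtubules, and the spindle checkpoint holds back the anaphase-promoting complex until every chromosome is attached. In resting and early cycling cells many of these promoters are held silent by the DREAM complex, which binds a short element called the cell cycle genes homology region (CHR), while B-MYB with the MuvB core and FOXM1 activate them later through the same element. The factor NF-Y, which binds the CCAAT box, acts beside it. In the E13.5 heart, cardiomyocytes, endothelium and mesenchyme all still divide, so transcripts of this group come from many cell types.

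Promoter sequences show what the members share beyond their function, which did not use sequence. RefSeq promoters of build GRCm38.p6 were each of 300 bases (250 before and 50 after the annotated start). They were found for 39 of the 48 genes in 41 windows, since Ect2 and Prc1 each have an overlapping pair. The CHR in the form TTTGAA, read on either strand, was present in 30 of the 41 windows (73.2%), against 17.9% of all 32851 mouse promoter windows. The other form of the CHR, TTTAAA, was present in 24.4% of the members' windows and 13.2% of all windows. CCAAT on either strand was present in 73.2% of the members' windows and 37.4% of all windows. Both TTTGAA and CCAAT were present in 63.4% of the members' windows and 6.95% of all windows.

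The promoters of 6 members are printed because the results return to these genes. Top2a and Bub1 had the smallest p-values over both strains, Kif11 and Ube2c had the smallest of their subgroups, and Cdc20 and Ccnb2 were not among the members lower at an unadjusted p under 0.05. The windows are chr11:99024140-99024439 (Top2a, minus strand), chr2:127831810-127832109 (Bub1, minus), chr19:37376132-37376431 (Kif11, plus), chr2:164769679-164769978 (Ube2c, plus), chr4:118437294-118437593 (Cdc20, minus) and chr9:70421505-70421804 (Ccnb2, minus). Each is written 5′ to 3′ on the strand of its gene, in lower case except for the motifs. Capitals mark TTTGAA and its reverse complement TTCAAA, and likewise CCAAT with its reverse complement ATTGG. Matches may overlap, as in the Ube2c promoter, where CCAATTGG holds a match on each strand.
Top2a: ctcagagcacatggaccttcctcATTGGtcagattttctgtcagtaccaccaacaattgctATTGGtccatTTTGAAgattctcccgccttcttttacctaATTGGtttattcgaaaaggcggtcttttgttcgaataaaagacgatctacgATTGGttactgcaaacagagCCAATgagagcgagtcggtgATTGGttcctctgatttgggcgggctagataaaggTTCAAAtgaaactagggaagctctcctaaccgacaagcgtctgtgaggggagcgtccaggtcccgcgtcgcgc
Bub1: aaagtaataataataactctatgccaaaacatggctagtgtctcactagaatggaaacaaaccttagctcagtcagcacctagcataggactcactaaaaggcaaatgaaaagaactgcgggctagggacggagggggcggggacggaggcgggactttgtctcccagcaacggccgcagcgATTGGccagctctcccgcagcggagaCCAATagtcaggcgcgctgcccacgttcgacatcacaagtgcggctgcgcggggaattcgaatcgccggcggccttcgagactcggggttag
Kif11: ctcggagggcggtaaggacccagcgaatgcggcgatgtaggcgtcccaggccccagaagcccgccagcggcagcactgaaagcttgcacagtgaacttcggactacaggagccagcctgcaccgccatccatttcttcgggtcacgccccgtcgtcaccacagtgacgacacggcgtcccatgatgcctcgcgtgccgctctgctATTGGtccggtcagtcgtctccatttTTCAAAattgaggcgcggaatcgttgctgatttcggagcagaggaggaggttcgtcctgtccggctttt
Ube2c: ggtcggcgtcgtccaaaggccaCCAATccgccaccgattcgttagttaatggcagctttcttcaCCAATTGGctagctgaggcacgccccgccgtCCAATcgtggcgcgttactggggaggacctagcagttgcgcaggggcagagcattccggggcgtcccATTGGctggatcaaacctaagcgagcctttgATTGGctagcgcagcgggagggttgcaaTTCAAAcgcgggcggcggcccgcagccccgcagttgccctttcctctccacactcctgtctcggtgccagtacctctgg
Cdc20: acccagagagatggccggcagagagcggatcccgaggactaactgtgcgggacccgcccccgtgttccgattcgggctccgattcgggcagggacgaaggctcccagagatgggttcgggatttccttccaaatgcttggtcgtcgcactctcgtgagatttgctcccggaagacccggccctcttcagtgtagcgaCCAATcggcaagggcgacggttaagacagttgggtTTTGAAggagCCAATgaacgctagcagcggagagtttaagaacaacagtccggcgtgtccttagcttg
Ccnb2: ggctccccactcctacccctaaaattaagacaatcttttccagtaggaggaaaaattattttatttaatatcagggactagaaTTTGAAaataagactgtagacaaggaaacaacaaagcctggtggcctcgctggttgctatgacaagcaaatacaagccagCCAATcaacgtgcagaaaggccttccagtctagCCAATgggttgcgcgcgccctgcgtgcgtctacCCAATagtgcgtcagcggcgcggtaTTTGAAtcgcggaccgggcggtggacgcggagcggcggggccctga
The Top2a window held 2 TTTGAA matches and 6 CCAAT matches, and the Ube2c window 1 and 6. The Kif11 window held 1 of each, the Cdc20 window 1 and 2, and the Ccnb2 window 2 and 3. The Bub1 window held 2 CCAAT matches and 0 TTTGAA matches. The genes are ENSMUSG00000020914 (Top2a, chr11:98992947-99024199), ENSMUSG00000027379 (Bub1, chr2:127800197-127831859), ENSMUSG00000012443 (Kif11, chr19:37376382-37421863), ENSMUSG00000001403 (Ube2c, chr2:164769929-164772902), ENSMUSG00000006398 (Cdc20, chr4:118432901-118437343) and ENSMUSG00000032218 (Ccnb2, chr9:70407689-70421554).

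The CHR matches of the members lay close to the start of transcription. Of 37 TTTGAA matches in the members' windows, 28 were centred within 50 bases of the start (75.7%), against 25.8% of the 6737 matches in all promoter windows. Matches were counted by window, so those in the overlapping windows of Ect2 and Prc1 were counted in each. The CCAAT box was often repeated: 19 of the 41 windows held 2 or more (46.3%), against 11.5% of all windows. The E2F site, which marks promoters of earlier S phase genes, was searched on either strand as 4 strings with the letters TTTGGCGC or TTTCGCGC or TTTCCCGC or TTTGCCGC, and at least 1 of these was present in 1 member window (2.44%), that of Cdk1, and in 2.26% of all windows. Of the 20 S phase genes listed for comparison, 17 had promoter entries, in 19 windows. Of these windows 42.1% held an E2F sequence, 10.5% held TTTGAA and 78.9% held CCAAT. Of 89 other mitotic genes, 74 had promoter entries, in 84 windows. Of these windows 11.9% held an E2F sequence, 42.9% held TTTGAA and 65.5% held CCAAT. A match describes the letters in the window and does not show that a factor binds there.

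**Figure D1:**
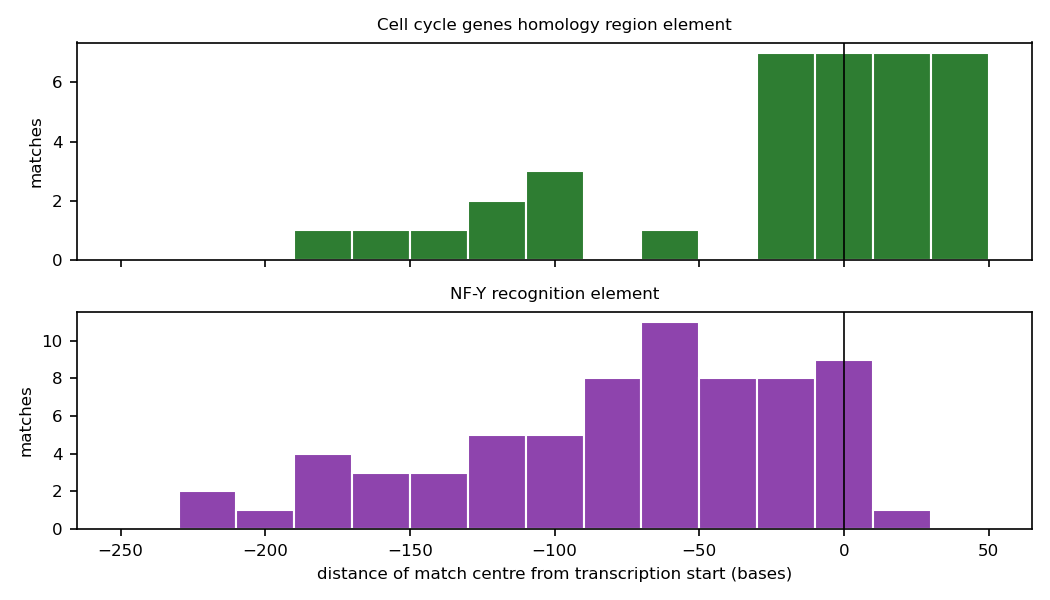
Number of matches (vertical axis) of the CHR element TTTGAA (upper panel) and of the CCAAT box bound by NF-Y (lower panel) by distance of the match centre from the transcription start in bases, over 41 promoter windows of the mitotic genes in bins of 20 bases. Of the 37 CHR matches, 28 lie within 50 bases of the start, while CCAAT matches extend further upstream.

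Depth was 6.60 to 19.6 M reads a library, and each member had at least 55 reads in every library. Markers of cardiomyocytes were present in all hearts, and their summed level was between 313295 and 535200 normalised reads. The share of reads from the mitochondrial genome was 4.85% to 19.5%, and it was over 10% in 7 libraries. The library labelled WT replicate 5 of the Dp3Tyb littermates was the shallowest, with the highest mitochondrial share, and stood apart from its group. Of the 48 members, 37 were higher and 7 lower in it than in all the other WT hearts of that group, where 39.7% and 41.4% of all genes were higher and lower. The Dp3Tyb differences are therefore also given without it, for all 48 genes together, for each subgroup and for most genes described singly. Those values kept Dp3Tyb replicate 5, which had 15.5% mitochondrial reads and stood apart for many of the same genes. They thus leave out an outlying library on the WT side only. With both of these libraries left out, the median log2 fold change of the 48 was -0.11, with 46 of 48 lower.

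Normalised read counts, which are reads divided by a library factor, ranged widely among the members. Mki67, the proliferation antigen that coats mitotic chromosomes, had the highest mean over the 20 hearts, at 8323 normalised reads, followed by Top2a, the topoisomerase that untangles chromatids, at 7194. Cdc25c, a phosphatase that activates CDK1, had the lowest mean at 191, followed by Pttg1, which encodes securin, the inhibitor of separase, at 241. Per kilobase of transcript, which allows levels of different genes to be compared, the order differed. Ube2c led with 1768 normalised reads per kilobase, followed by Top2a (1371), Ccna2 (1278) and Birc5 (1036), while Espl1 (91.4) and Cdc25c (96.8) were lowest.

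In Dp3Tyb hearts all 48 mitotic genes had a mean log2 level below that of their WT littermates, and none passed the test. The median log2 fold change of the 48 was -0.15, a level 9.95% lower, and single members ranged from -0.29 (Cenpf) to -0.03 (Pttg1). Without WT replicate 5, and with Dp3Tyb replicate 5 kept, the median was -0.08 and 38 of 48 were lower. Single members then ranged from -0.36 (Espl1) to 0.11 (Incenp). The 10 members that were then higher than in WT hearts were Sgo1 (0.04), Cenpe (0.09), Ndc80 (0.06), Nuf2 (0.05), Incenp (0.11), Birc5 (0.05), Nusap1 (0.03), Hmmr (0.05), Ckap2 (0.0077) and Pttg1 (0.02). The value of 12 members stayed below 0 and within 1.5 times of that with all hearts. Over all 14763 genes tested the median was -0.0027, and 51.1% of genes had a log2 fold change below 0. In limma with Benjamini-Hochberg adjustment 0 of 48 members had an adjusted p under 0.05, where 0.0542% of all genes did. At an unadjusted p under 0.05, 9 members were lower and 0 higher, where 1.21% of all genes were lower. In the count models edgeR and DESeq2 0 members passed, where 0.061% and 0.23% of all genes did, and 8 and 11 members were lower at an unadjusted p under 0.05, where 1.17% and 1.53% of all genes were. All 5 mutant hearts lay below all 5 WT hearts for 2 members, Foxm1 and Tacc3, where 0.474% of all genes did so.

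In Ts1Rhr hearts 41 of the 48 genes were lower and 7 higher than in WT littermates, with a median log2 fold change of -0.14 (a level 9.06% lower). The range was wider, from -0.38 (Cenpf) to 0.15 (Cdc25c). Over all 14867 genes tested 50.4% were lower. In limma 0 members passed, where 0.0269% of all genes did, and 8 members were lower and 0 higher at an unadjusted p under 0.05, where 2.66% of all genes were lower. In edgeR and DESeq2 0 members passed, where 0.0269% and 0.168% of all genes did, and 8 and 10 were lower at an unadjusted p under 0.05, where 2.46% and 2.71% were. There were 0 members with all mutant hearts below all WT hearts, where 0.498% of all genes had this. In both strains 41 members were lower, where 32.3% of 14605 genes were.

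The average of both strains, fitted over all 20 hearts, gave 46 of 48 members lower, with a median of -0.14, where 49.2% of all 15348 genes were lower. In limma 0 members passed and 20 were lower at an unadjusted p under 0.05, against 0.267% and 3.97% of all genes. The smallest adjusted p was 0.173, for Bub1. In edgeR 0 passed and 20 were lower at an unadjusted p under 0.05, against 0.267% and 3.72% of all genes. In DESeq2, the tool named in the study's methods, 2 members passed, Top2a (DESeq2 adjusted p = 0.0374) and Bub1 (DESeq2 adjusted p = 0.0382), where 0.86% of all genes did, and 23 were lower at an unadjusted p under 0.05, where 4.2% were. In a whole heart, fewer dividing cells and fewer mitotic transcripts per dividing cell cannot be told apart.

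**Figure D2:**
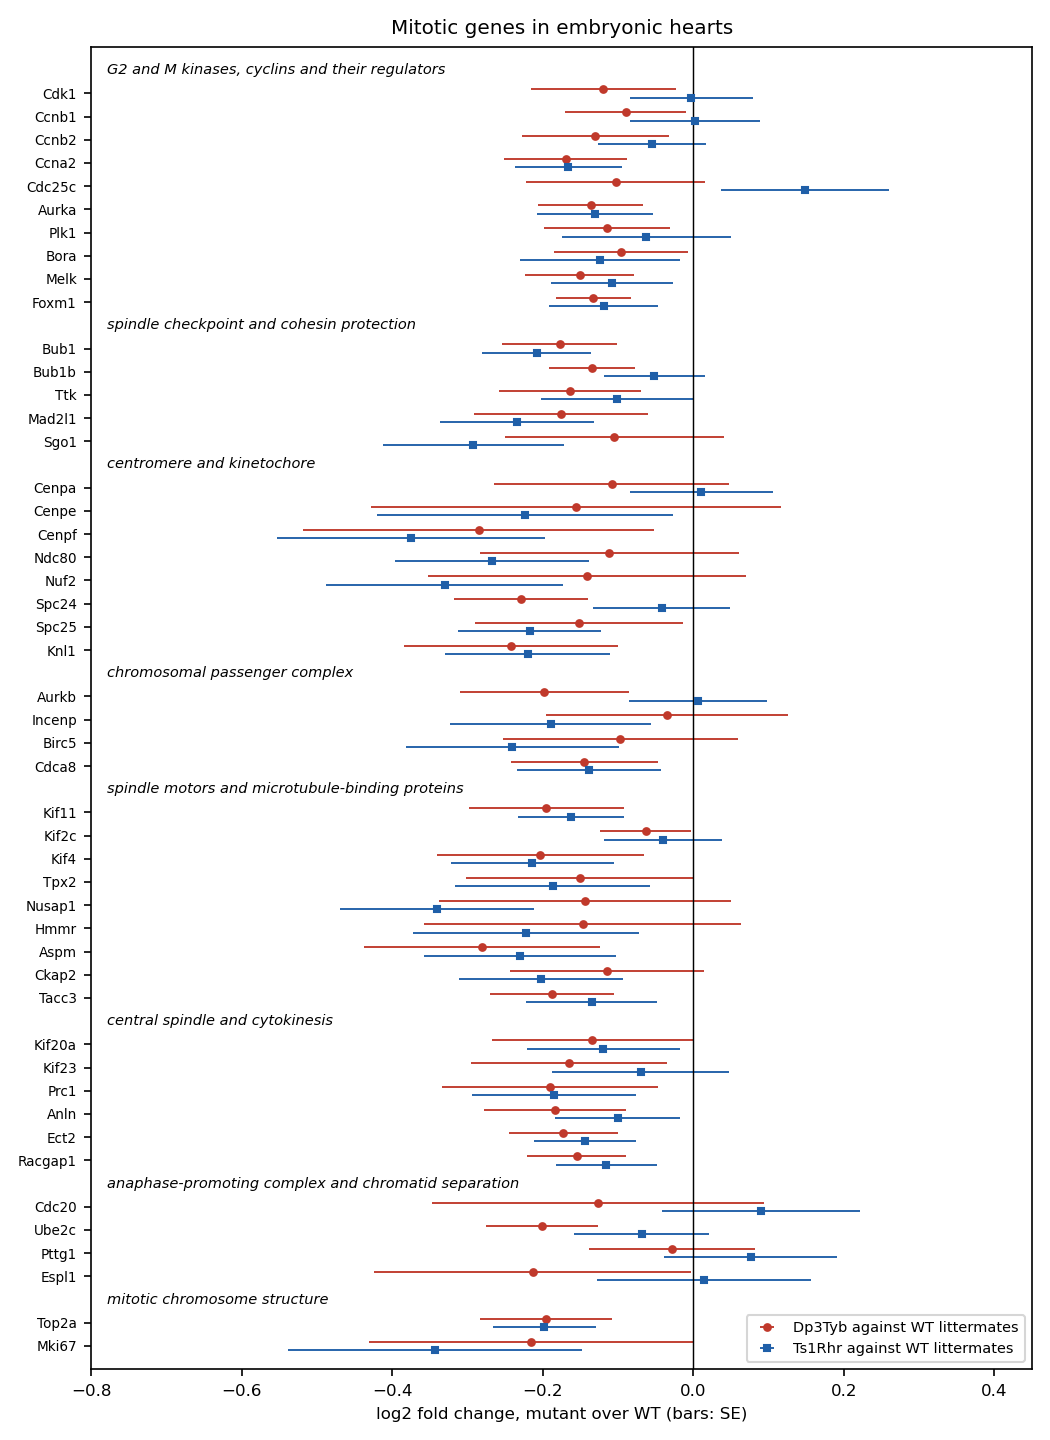
Log2 fold change of each of the 48 mitotic genes in Dp3Tyb (red circles) and in Ts1Rhr (blue squares) hearts over their WT littermates, with bars of 1 SE (limma, 5 hearts a group), ordered by functional subgroup. All 48 Dp3Tyb points lie below 0, while 7 Ts1Rhr points lie above it, 3 of them among the 4 genes of the anaphase-promoting complex and chromatid separation.

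The kinases, cyclins and regulators of G2 and M (10 genes) had a median log2 fold change of -0.13 in Dp3Tyb and -0.09 in Ts1Rhr, with 10 and 8 of 10 lower. The Dp3Tyb median without WT replicate 5 was -0.11, with 10 of 10 lower. Ccna2, the cyclin that carries cells through S phase and G2, had the smallest p-value of the subgroup over both strains. Its counts in WT hearts were 3570, 3789, 3672, 4065 and 4780, and in Dp3Tyb hearts 3570, 3518, 3447, 3337 and 3706 (replicates 1 to 5, as in every list below). In the Ts1Rhr comparison they were 4266, 4295, 4119, 3977 and 3622 in WT hearts and 3892, 3863, 3494, 3582 and 3247 in mutant hearts. Most mutant hearts were below most of their controls, but the groups overlapped in each strain. The log2 fold change was -0.17 ± 0.08 in Dp3Tyb and -0.17 ± 0.07 in Ts1Rhr (SE, n = 5 hearts a group, limma unadjusted p = 0.063 and 0.037), and the Dp3Tyb value was -0.10 ± 0.06 without WT replicate 5.

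Foxm1, the transcription factor that activates many of the other members, varied little among hearts of a genotype in the Dp3Tyb comparison. It had 1290, 1358, 1324, 1380 and 1318 counts in WT hearts against 1245, 1177, 1247, 1191 and 1221 in Dp3Tyb hearts, and these groups did not overlap. The log2 fold change was -0.13 ± 0.05 (limma unadjusted p = 0.022, adjusted p = 1.0), and -0.14 without WT replicate 5. In Ts1Rhr it was -0.12 ± 0.07 with overlapping groups. Cdc25c stood at the other end of the subgroup, with 217, 199, 216, 208 and 161 counts in WT and 190, 208, 203, 184 and 148 in Dp3Tyb hearts, and 186, 183, 210, 144 and 175 in WT and 194, 179, 226, 207 and 186 in Ts1Rhr hearts. Its groups overlapped throughout, with log2 fold changes of -0.10 ± 0.12 (-0.18 ± 0.10 without WT replicate 5) and 0.15 ± 0.11. The mitotic cyclin Ccnb1 and its kinase Cdk1 had log2 fold changes of -0.09 and -0.12 in Dp3Tyb and of 0.0017 and -0.0028 in Ts1Rhr, none past the test. Ccnb2, whose promoter holds 2 CHR matches, had -0.13 ± 0.10 and -0.06 ± 0.07, and -0.05 ± 0.07 in Dp3Tyb without WT replicate 5. Aurka, Plk1, Bora and Melk, which act in turn to activate or follow CDK1, lay between -0.15 and -0.06 in both strains, and between -0.12 and -0.03 in Dp3Tyb without WT replicate 5.

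The spindle checkpoint and cohesin protection genes (5 genes) were lower in 5 of 5 cases in each strain, with medians of -0.16 in Dp3Tyb and -0.21 in Ts1Rhr. The Dp3Tyb median without WT replicate 5 was -0.11, with 4 of 5 lower. Bub1, a checkpoint kinase at the kinetochore, had 1287, 1326, 1255, 1403 and 1583 counts in WT and 1295, 1100, 1177, 1239 and 1235 in Dp3Tyb hearts. Against Ts1Rhr it had 1421, 1432, 1411, 1430 and 1251 counts in WT and 1292, 1326, 1135, 1203 and 1066 in mutant hearts. In Dp3Tyb 4 of the 5 mutant hearts were below every WT heart, and in Ts1Rhr all 5 mutant hearts were below 4 of the 5 WT hearts. The log2 fold change was -0.18 ± 0.08 in Dp3Tyb and -0.21 ± 0.07 in Ts1Rhr (limma unadjusted p = 0.039 and 0.014), and -0.19 ± 0.05 on average (limma adjusted p = 0.173). Bub1 in Dp3Tyb was at -0.12 ± 0.06 without WT replicate 5. Ttk, the kinase that recruits checkpoint proteins, had the largest p-value of the subgroup on the average of both strains, with 472, 493, 427, 489 and 570 counts in WT and 479, 394, 391, 443 and 477 in Dp3Tyb hearts (-0.16 ± 0.09, and -0.11 ± 0.08 without WT replicate 5). In Ts1Rhr it had 466, 485, 440, 488 and 384 counts against 556, 558, 461, 433 and 428 in WT hearts (-0.10 ± 0.10). Mad2l1, the checkpoint protein that blocks CDC20, and Sgo1, which protects centromeric cohesin, had -0.23 ± 0.10 and -0.29 ± 0.12 in Ts1Rhr. In Dp3Tyb they had -0.18 ± 0.12 and -0.11 ± 0.15, and -0.07 ± 0.07 and 0.04 ± 0.08 without WT replicate 5.

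Centromere and kinetochore genes (8 genes) had medians of -0.15 in Dp3Tyb and -0.22 in Ts1Rhr, with 8 and 7 of 8 lower. The Dp3Tyb median without WT replicate 5 was -0.04, with 5 of 8 lower. Cenpe, the kinetochore motor, had the highest coefficient of variation of all members in the WT hearts of the Dp3Tyb comparison, at 48.2%. Its mean was 2049 ± 987 counts in those WT hearts and 1785 ± 636 in Dp3Tyb hearts (SD, n = 5). WT replicate 5 held 3814 counts, and without it the WT mean was 1607 and the log2 fold change went from -0.16 ± 0.27 to 0.09 ± 0.18. That fit kept Dp3Tyb replicate 5, which held 2920 counts against 1450 to 1571 in the other Dp3Tyb hearts. Cenpf, another large kinetochore protein, had the lowest value of the 48 in Dp3Tyb, -0.29 ± 0.23, which was -0.07 ± 0.16 without WT replicate 5. Knl1, the scaffold that recruits BUB1, had 934, 1064, 947, 1065 and 1556 counts in WT and 907, 892, 820, 874 and 1161 in Dp3Tyb hearts, and 1002, 1228, 1126, 1049 and 872 in WT and 963, 1079, 750, 905 and 838 in Ts1Rhr hearts. WT and Dp3Tyb replicates 5 were the highest of their groups, and both comparisons overlapped. The log2 fold changes were -0.24 ± 0.14 and -0.22 ± 0.11, and the former was -0.12 without WT replicate 5. Cenpa, the histone H3 variant of centromeres, went the other way in those libraries, with 1495, 1510, 1583, 1661 and 1054 counts in WT and 1397, 1488, 1526, 1448 and 936 in Dp3Tyb hearts. In Ts1Rhr it had 1238, 1055, 1519, 1388 and 1285 counts against 1223, 1216, 1417, 1183 and 1368 in WT hearts, a log2 fold change of 0.01 ± 0.09.

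The chromosomal passenger complex (4 genes), which corrects faulty attachments, had medians of -0.12 in Dp3Tyb and -0.16 in Ts1Rhr. The Dp3Tyb median without WT replicate 5 was -0.0084, with 2 of 4 lower. Cdca8, which encodes borealin, had 894, 932, 808, 954 and 1180 counts in WT and 872, 845, 842, 777 and 952 in Dp3Tyb hearts. In the other comparison it had 1137, 1107, 1018, 1012 and 833 counts in WT and 1014, 984, 980, 839 and 812 in Ts1Rhr hearts. Its log2 fold changes were -0.14 ± 0.10 and -0.14 ± 0.10, within overlapping groups, and the Dp3Tyb value was -0.07 ± 0.07 without WT replicate 5. Incenp, the scaffold of the complex, had 1171, 1236, 1237, 1229 and 2023 counts in WT and 1226, 1176, 1283, 1210 and 1757 in Dp3Tyb hearts, and replicates 1 to 4 of both groups overlapped widely. Against Ts1Rhr it had 1741, 1827, 1533, 1891 and 1234 counts in WT and 1580, 1780, 1397, 1246 and 1203 in mutant hearts. Aurkb, the kinase of the complex, had -0.20 ± 0.11 in Dp3Tyb and 0.01 ± 0.09 in Ts1Rhr.

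Spindle motors and microtubule-binding proteins (9 genes) were lower in 9 of 9 cases in each strain, with medians of -0.15 in Dp3Tyb and -0.20 in Ts1Rhr. Without WT replicate 5 the Dp3Tyb median was -0.04, with 6 of 9 lower. Kif11, the motor that pushes spindle poles apart, had 2548, 2583, 2533, 2671 and 3661 counts in WT and 2424, 2343, 2360, 2298 and 2690 in Dp3Tyb hearts. It had 2803, 2843, 2816, 2750 and 2481 counts in WT and 2631, 2688, 2274, 2441 and 2215 in Ts1Rhr hearts. Of the Dp3Tyb hearts, replicates 1 to 4 were below every WT heart, and all 5 Ts1Rhr hearts were below WT replicates 1 to 4. The log2 fold change was -0.20 ± 0.10 in Dp3Tyb and -0.16 ± 0.07 in Ts1Rhr (limma unadjusted p = 0.086 and 0.039), and the Dp3Tyb value was -0.09 ± 0.06 without WT replicate 5. Kif2c, which removes tubulin from microtubule ends, differed least, with 712, 806, 730, 762 and 802 counts in WT and 775, 732, 712, 720 and 705 in Dp3Tyb hearts, and 748, 819, 772, 735 and 687 in WT and 776, 793, 767, 706 and 623 in Ts1Rhr hearts. Tacc3, which stabilises spindle microtubules, did not overlap in Dp3Tyb, with WT hearts at 1178 to 1597 counts and mutant hearts at 1073 to 1171 (-0.19 ± 0.08, and -0.11 ± 0.05 without WT replicate 5). Nusap1, a microtubule bundling protein, had -0.34 ± 0.13 in Ts1Rhr, the lowest of the subgroup in that strain.

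Central spindle and cytokinesis genes (6 genes) were lower in 6 of 6 cases in each strain, with medians of -0.17 in Dp3Tyb and -0.12 in Ts1Rhr. Without WT replicate 5 the Dp3Tyb median was -0.08, with 6 of 6 lower. Ect2, the exchange factor that activates RhoA at the cleavage furrow, had 1450, 1549, 1489, 1671 and 1817 counts in WT and 1518, 1372, 1437, 1380 and 1351 in Dp3Tyb hearts. It had 1507, 1605, 1665, 1550 and 1393 counts in WT and 1453, 1467, 1421, 1398 and 1247 in Ts1Rhr hearts. In Dp3Tyb 4 of the 5 mutant hearts were below every WT heart, and in Ts1Rhr all 5 mutant hearts were below WT replicates 1 to 4. The log2 fold changes were -0.17 ± 0.07 and -0.14 ± 0.07 (limma unadjusted p = 0.037 and 0.054). Its partner Racgap1, which recruits it to the central spindle, had -0.15 ± 0.07 and -0.12 ± 0.07. Kif23, the motor of the central spindle, had 1156, 1299, 1213, 1252 and 1826 counts in WT and 1187, 1144, 1075, 1094 and 1471 in Dp3Tyb hearts. In the Ts1Rhr comparison it had 1466, 1461, 1332, 1493 and 1095 counts in WT and 1454, 1591, 1087, 1276 and 1140 in mutant hearts, which overlapped widely (-0.07 ± 0.12).

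The genes of the anaphase-promoting complex and chromatid separation (4 genes) were the subgroup with differing signs. In Dp3Tyb 4 of 4 were lower (median -0.16), and in Ts1Rhr 1 of 4 was (median 0.05). These genes encode the activator and the conjugating enzyme of the complex, securin and separase, and no core subunit of it. Without WT replicate 5 the Dp3Tyb median was -0.25, with 3 of 4 lower. Ube2c, the ubiquitin-conjugating enzyme of the complex, had 1740, 1848, 1636, 1923 and 1706 counts in WT and 1611, 1613, 1676, 1408 and 1400 in Dp3Tyb hearts. Only replicate 3 of the Dp3Tyb hearts reached the WT range, and the log2 fold change was -0.20 ± 0.07 (limma unadjusted p = 0.020, the smallest of the 48 in Dp3Tyb), and -0.21 ± 0.08 without WT replicate 5. In Ts1Rhr hearts Ube2c had 1705, 1832, 2007, 1616 and 1455 counts against 1920, 1901, 1802, 1820 and 1564 in WT hearts (-0.07 ± 0.09). Cdc20, the activator of the complex, had 1075, 1104, 1058, 1134 and 622 counts in WT and 997, 1045, 1016, 1030 and 523 in Dp3Tyb hearts. It had 817, 872, 963, 651 and 910 counts in WT and 796, 711, 1126, 980 and 891 in Ts1Rhr hearts. Replicates 5 of the Dp3Tyb comparison were far below the rest. The log2 fold change was -0.13 ± 0.22 in Dp3Tyb, -0.29 ± 0.18 there without WT replicate 5, and 0.09 ± 0.13 in Ts1Rhr. Espl1, which encodes separase, had 755, 766, 832, 894 and 493 counts in WT and 710, 768, 713, 692 and 376 in Dp3Tyb hearts. It had 608, 703, 702, 477 and 762 counts in WT and 528, 583, 841, 671 and 659 in Ts1Rhr hearts, and replicates 5 of the Dp3Tyb comparison were again low. Pttg1 had 259, 246, 213, 215 and 273 counts in WT against 268, 246, 253, 197 and 220 in Dp3Tyb hearts, and 206, 241, 236, 306 and 203 in WT against 272, 233, 264, 251 and 226 in Ts1Rhr hearts.

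Of the proteins of mitotic chromosome structure (2 genes), Top2a had a difference of nearly the same size in each strain. Its counts were 7038, 7141, 7146, 7414 and 9157 in WT and 6803, 6357, 6089, 6402 and 7333 in Dp3Tyb hearts, and 7591, 8569, 8029, 7627 and 7192 in WT and 7044, 7441, 6436, 6691 and 6386 in Ts1Rhr hearts. In each strain 4 of the 5 mutant hearts were below every WT heart. The log2 fold change was -0.20 ± 0.09 in Dp3Tyb and -0.20 ± 0.07 in Ts1Rhr (limma unadjusted p = 0.047 and 0.013), a level 12.7% and 12.8% lower. Top2a in Dp3Tyb was at -0.13 ± 0.06 without WT replicate 5. Top2a and Bub1 were the 2 members lower at an unadjusted p under 0.05 in each strain, where 0.308% of 14605 genes were. Mki67 had log2 fold changes of -0.22 and -0.34 with SEs of 0.22 and 0.20, and the Dp3Tyb value was -0.02 ± 0.15 without WT replicate 5. Its counts were 6486, 7428, 7137, 7158 and 13711 in WT and 6411, 6122, 6005, 6467 and 10501 in Dp3Tyb hearts, and 9870, 11449, 9091, 12613 and 6639 in WT and 9436, 10889, 5991, 6598 and 6452 in Ts1Rhr hearts.

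**Figure D3:**
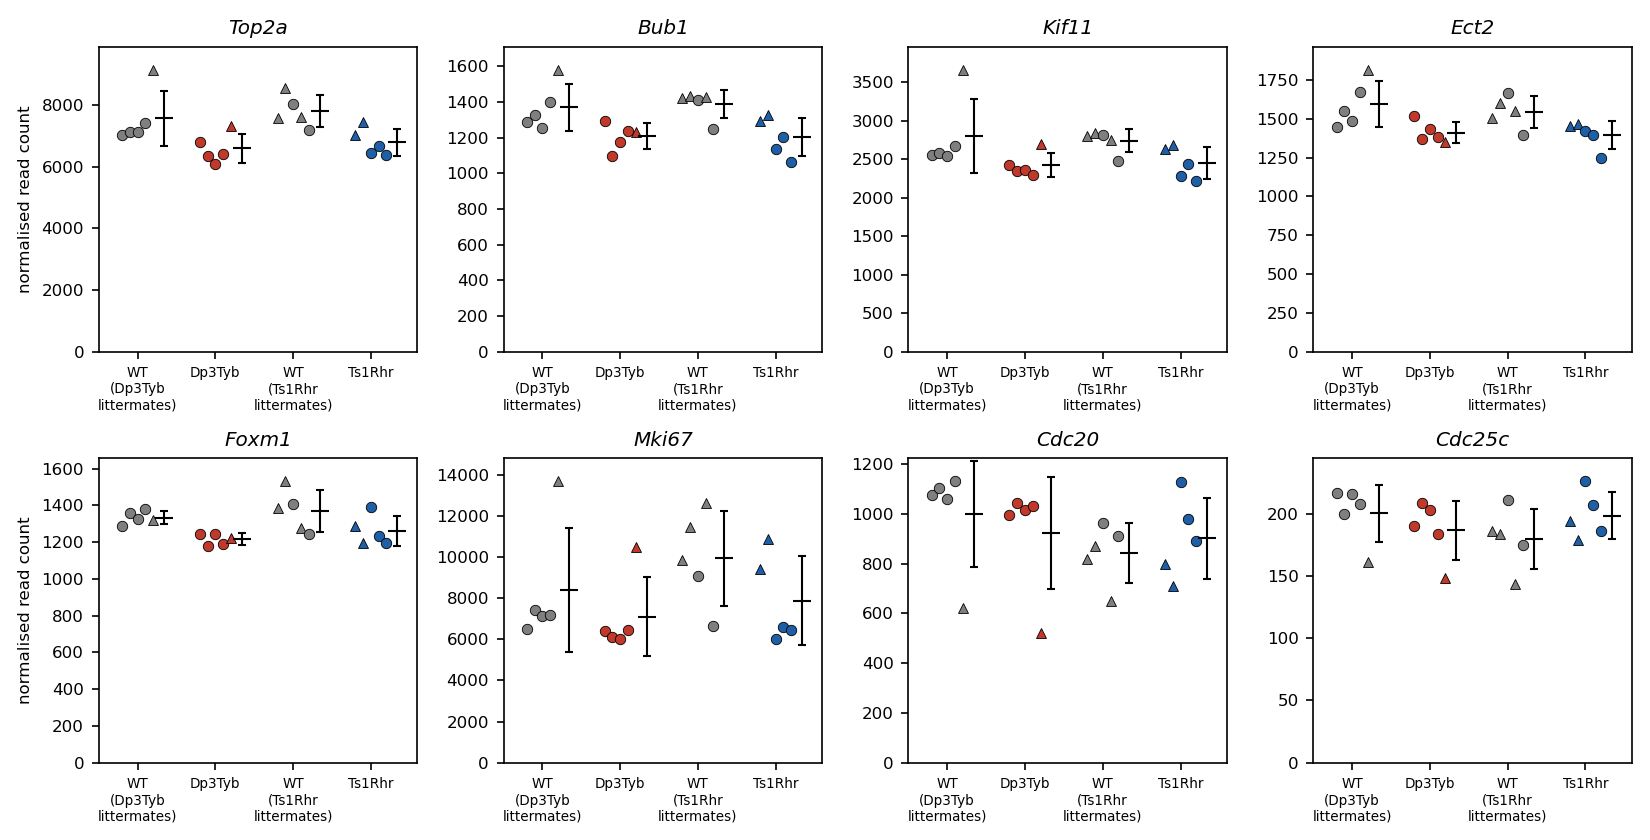
Normalised read counts (vertical axis, from 0) of 8 mitotic genes in each heart, by group, with the mean and 1 SD beside the points (n = 5). Triangles mark the 7 libraries with over 10% mitochondrial reads. Foxm1 does not overlap between WT and Dp3Tyb, Mki67 is high and Cdc20 low in replicates 5 of the Dp3Tyb comparison, and Cdc25c overlaps throughout.

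The difference between the strains was tested by the interaction of strain and genotype over all 20 hearts. In limma 0 of 48 members passed, where 0.013% of all genes did, and 0 had an unadjusted p under 0.05, where 1.52% of all genes did. The median difference over the 48 (Dp3Tyb change minus Ts1Rhr change) was -0.02, and its sign was not stable. It was 0.08 with array weights, where 8 members had an unadjusted p under 0.05, 0 of them lower (7.96% of all genes had such a p in either direction), 0.07 with the lung and foregut term and 0.07 without WT replicate 5 of the Dp3Tyb littermates. In edgeR and DESeq2 0 members passed, where 0.013% and 0.0195% of all genes did, and 0 had a lower value at an unadjusted p under 0.05, where 0.437% and 0.469% did. The largest single differences were -0.25 ± 0.16 for Cdc25c (unadjusted p = 0.135), -0.23 ± 0.27 for Espl1 and -0.22 ± 0.27 for Cdc20. The smallest difference was 0.0021 ± 0.11 for Top2a. Without WT replicate 5 of the Dp3Tyb littermates, the Dp3Tyb change went from -0.21 to -0.36 for Espl1 and from -0.13 to -0.29 for Cdc20. For Cdc25c it went from -0.10 to -0.18, so the sizes of these largest differences depend on that library. With the errors given, a difference in sign for the anaphase-promoting complex and chromatid separation subgroup was not detectable.

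The members varied together among hearts of the same genotype. The first component of their within-group variation held 67.8% of it, where the first component of all 15348 genes held 44.0%. On this component 8 members (Cdk1, Ccnb1, Cdc25c, Cenpa, Spc24, Aurkb, Cdc20 and Espl1) had the opposite sign to the other 40. A relative level was taken for each heart as the median over the 48 members of the log2 value minus the gene's mean over all hearts. It was -0.07, 0.0019, -0.07, 0.04 and 0.36 in WT and -0.10, -0.14, -0.15, -0.18 and 0.04 in Dp3Tyb hearts, and 0.15, 0.22, 0.12, 0.18 and -0.12 in WT and 0.04, 0.09, -0.07, -0.09 and -0.24 in Ts1Rhr hearts. In Dp3Tyb replicates 1 to 4 lay below every WT heart.

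Within each group the libraries with over 10% mitochondrial reads had the highest relative levels. In WT and Dp3Tyb hearts of the Dp3Tyb comparison this was replicate 5 (0.36 against at most 0.04, and 0.04 against at most -0.10). In the Ts1Rhr comparison it was WT replicates 1, 2 and 4 (0.15 to 0.22 against -0.12 and 0.12) and Ts1Rhr replicates 1 and 2 (0.04 and 0.09 against at most -0.07). The latter are also the Ts1Rhr hearts labelled with heart defects, so label and mitochondrial share cannot be told apart. As a mean, the 4 genes of the anaphase-promoting complex and chromatid separation had the reverse order in the Dp3Tyb comparison. Their mean relative levels were -0.19 in WT replicate 5 and -0.50 in Dp3Tyb replicate 5, against at least 0.09 and -0.07 in the others. In WT replicate 5, Cdc20 and Espl1 were the lowest of the group (log2 difference from the other WT hearts -0.81 and -0.71). Pttg1 was the highest there (0.23), and Ube2c lay within the range of the others. Pttg1 in Dp3Tyb replicate 5 also lay within the range of its group.

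**Figure D4:**
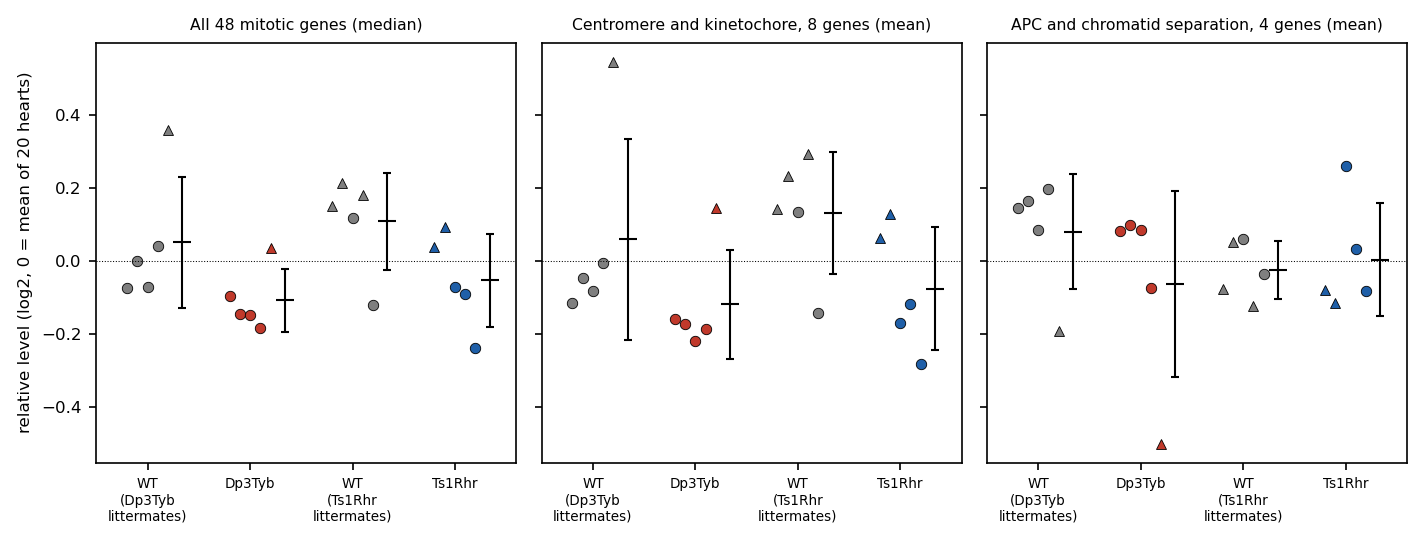
Relative level (log2, 0 is the mean of the 20 hearts) of all 48 mitotic genes (left, median over genes), of the 8 centromere and kinetochore genes (middle, mean over genes) and of the 4 anaphase-promoting complex and chromatid separation genes (right, mean over genes) in each heart, with group mean and SD (n = 5). Triangles, the 7 libraries with over 10% mitochondrial reads, lie above the circles of their group in the left panel, and the replicates 5 of the Dp3Tyb comparison lie below in the right panel.

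The size of the median difference moved with the libraries included, and its direction did not. Without WT replicate 5 of the Dp3Tyb littermates 4 members were lower at an unadjusted p under 0.05 (1.92% of all genes), namely Foxm1, Spc24, Aurkb and Ube2c. Without WT replicate 4, 0 were (0.714% of all genes). Without the 7 libraries over 10% mitochondrial reads the Dp3Tyb median was -0.11, with 46 of 48 lower and 26 of them at an unadjusted p under 0.05 (4.42% of all genes). With the mitochondrial share as a term 39 were (5.68% of all genes). In Ts1Rhr these settings gave medians of -0.10 and -0.09, with 6 members (1.65% of all genes) and 11 members (3.65% of all genes) lower at an unadjusted p under 0.05. Without WT replicate 5 of the Ts1Rhr littermates the Ts1Rhr median was -0.20, with 26 lower at an unadjusted p under 0.05 (5.78% of all genes). With the mitochondrial share as a term, 10 members passed on the average of both strains (1.95% of all genes). With libraries weighted by their quality in limma, 23 did (4.6% of all genes), and 23 members in Dp3Tyb (5.62% of all genes) and 33 in Ts1Rhr (9.77% of all genes) were lower at an unadjusted p under 0.05. Each of these members was lower in the mutant hearts.

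**Figure D5:**
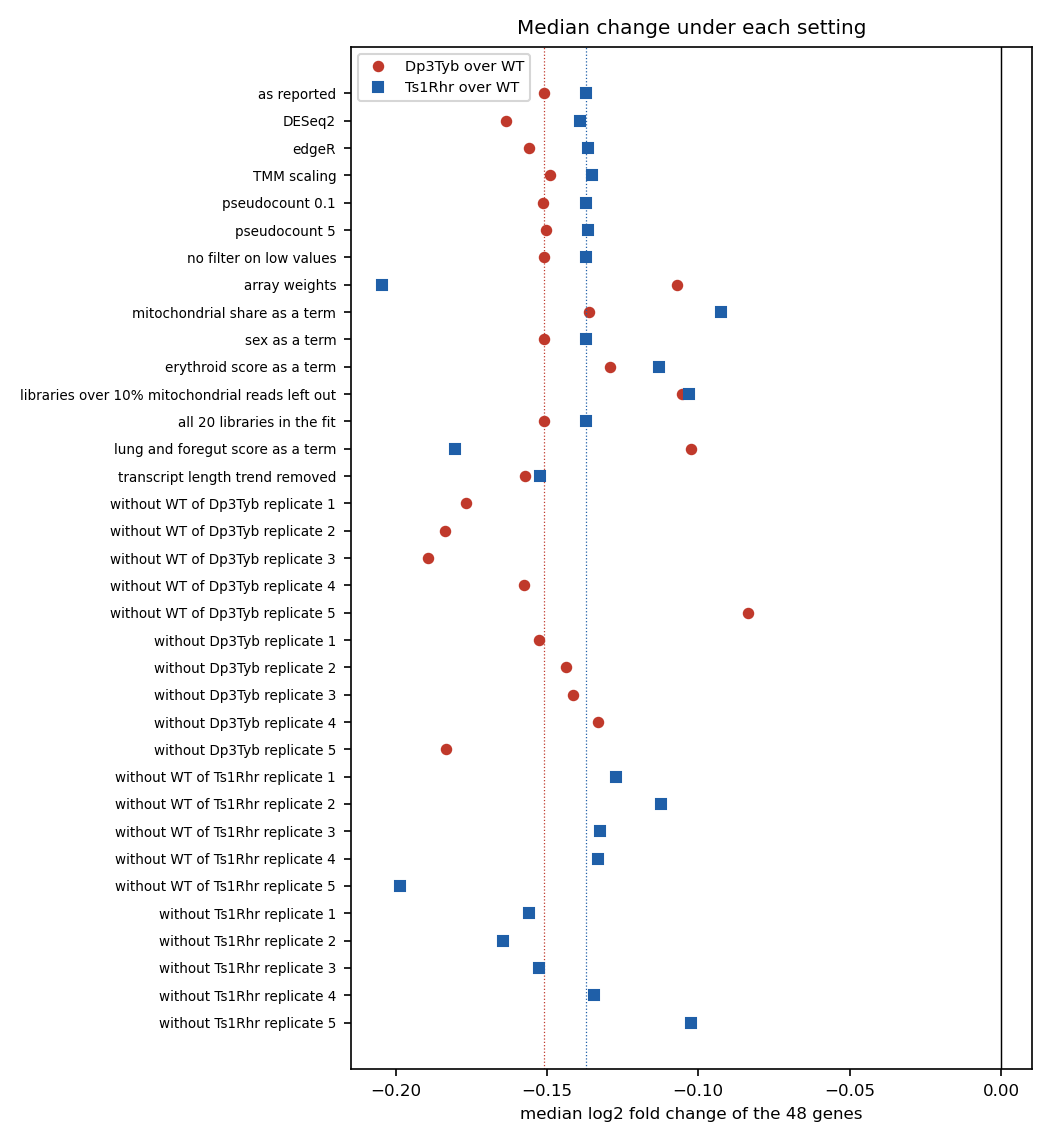
Median log2 fold change of the 48 mitotic genes in Dp3Tyb (red circles) and Ts1Rhr (blue squares) over WT littermates under each processing setting and with each library left out in turn, with the reported values as dotted lines. Every point lies below 0, with Dp3Tyb closest to 0 without WT replicate 5 of its littermates (-0.08).

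Further mitotic genes outside the 48 lay in the same direction. Of 89 other mitotic genes, 84 were lower in Dp3Tyb and 75 in Ts1Rhr, where 51.1% and 50.4% of all genes were, with medians of -0.12 in each, and 0 passed in limma, with 9 and 11 lower and 0 higher at an unadjusted p under 0.05 (1.21% and 2.66% of all genes were lower at that p). The smallest p-values in Dp3Tyb were those of Nek2, a centrosome kinase (-0.22 ± 0.06), and Ncapg2, a condensin subunit (-0.19 ± 0.06). In Ts1Rhr they were those of Oip5, which helps load centromeric histone (-0.28 ± 0.09), and Cdca2 (-0.19 ± 0.07). All 20 S phase genes were lower in each strain (medians -0.14 and -0.10), with 6 and 5 at an unadjusted p under 0.05, against the same 1.21% and 2.66%, and 0 passing. Their smallest p-values were those of Uhrf1 (-0.17 ± 0.06) and Cdc45 (-0.19 ± 0.07) in Dp3Tyb and of Prim1 (-0.33 ± 0.09) and Rrm2 (-0.18 ± 0.07) in Ts1Rhr.

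Among 23 tested genes that regulate mitotic transcription, 2 passed on the average of both strains (0.267% of all genes did) and 0 in either strain alone (0.0542% and 0.0269%). Dyrk1a, a kinase in 3 copies in both strains whose known substrates include the LIN52 subunit of the DREAM complex, rose by 0.42 ± 0.06 on the log2 scale (limma adjusted p = 0.0027). Its mean was 1910 ± 224 counts in WT and 2624 ± 323 in Dp3Tyb hearts, and 1985 ± 228 in WT and 2576 ± 159 in Ts1Rhr hearts (SD, n = 5). Rbl1, which encodes the pocket protein p107 of the DREAM complex and is itself induced in cycling cells, fell by 0.22 ± 0.04 (limma adjusted p = 0.029). Its mean was 916 ± 63.0 counts in WT and 776 ± 26.0 in Dp3Tyb hearts, and 893 ± 54.4 in WT and 775 ± 57.6 in Ts1Rhr hearts. Mybl2, which encodes B-MYB, had -0.29 ± 0.06 in Dp3Tyb (limma unadjusted p = 0.0007, adjusted p = 0.470) and -0.08 ± 0.09 in Ts1Rhr. The median change of members with TTTGAA in a promoter window (28 genes) was -0.16 in Dp3Tyb and -0.13 in Ts1Rhr. That of members with a window and no TTTGAA (11 genes) was -0.14 and -0.22. These Dp3Tyb medians include WT replicate 5. Without it, most members with TTTGAA stayed below 0, and Ndc80, Hmmr and Ckap2 did not. Of those without TTTGAA, Sgo1, Cenpe, Nuf2, Birc5, Nusap1 and Pttg1 were then above 0, and the middle value of the 11 was that of Pttg1 (0.02).

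Markers of other cell types were measured beside the mitotic genes, since a whole heart holds many. Of 10 cardiomyocyte markers, 7 were lower in Dp3Tyb and 6 in Ts1Rhr (medians -0.09 and -0.02). The 8 fibroblast and cushion mesenchyme markers were higher in 8 and 7 cases (medians 0.15 and 0.06), the 8 macrophage markers in 8 and 7 (0.24 and 0.33) and the 10 erythroid markers in 9 and 10 (0.15 and 0.29). The 8 endothelial markers were higher in 5 and 7 cases (0.04 and 0.08) and the 6 epicardial markers in 4 and 5 (0.03 and 0.07). The mean relative level over the erythroid markers was 0.19 higher in Dp3Tyb hearts, and 0.04 higher without WT replicate 5. For the macrophage markers it was 0.24 and 0.10, for the cardiomyocyte markers -0.09 and -0.05, and for the fibroblast markers 0.19 and 0.17. In limma 0 of these markers passed in either strain, where 0.0542% and 0.0269% of all genes did. At an unadjusted p under 0.05, 0 of them were lower or higher in Dp3Tyb, and in Ts1Rhr 3 of the 8 macrophage markers and 1 of the 6 epicardial markers were higher and 1 of the 10 cardiomyocyte markers was lower, where 5.52% of all genes had such a p in either direction. No list held a marker at 0 in every library. The summed fibroblast markers had 72848 to 121081 normalised reads in WT and 100363 to 133588 in Dp3Tyb hearts, and 84766 to 125002 in WT and 84589 to 147624 in Ts1Rhr hearts. The summed macrophage markers had 810 to 1517 in WT and 1250 to 1589 in Dp3Tyb hearts, and 1022 to 1324 in WT and 989 to 1690 in Ts1Rhr hearts. The summed erythroid markers had 35687 to 73046 in WT and 47248 to 86681 in Dp3Tyb hearts, and 67755 to 245631 in WT and 117852 to 185789 in Ts1Rhr hearts. These ranges overlapped between each strain and its controls. Lung and foregut markers varied by library in opposite directions between the strains, with all 6 tested higher in Dp3Tyb (median 1.98) and all 6 lower in Ts1Rhr (-2.03), though their summed level was at most 609 normalised reads. Of 5 liver markers, 1 was expressed enough to be tested in each strain, and the summed level of the 5 was 8.52 to 204 normalised reads. With the lung and foregut level as a term the median of the mitotic genes was -0.10 in Dp3Tyb, with 0 of 48 lower at an unadjusted p under 0.05 (0.691% of all genes), and -0.18 in Ts1Rhr, with 7 (1.33% of all genes). With the erythroid level as a term the medians were -0.13 and -0.11, with 6 members (1.59% of all genes) in Dp3Tyb and 2 (1.46% of all genes) in Ts1Rhr lower at an unadjusted p under 0.05. The part of fibroblasts, macrophages and the other types in these differences was not tested.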

How the data were processed

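Poly(A)-selected RNA of 20 whole E13.5 hearts was sequenced by Illumina HiSeq. The submitters' processing notes name Trimmomatic 0.36, STAR 2.5.2a, RSEM 1.2.31, DESeq2 and build GRCm38, while the gene annotation and the use of strand are not given in the sources used here. The authors deposited a normalised signal for 48795 genes, in which 100% of the values in each library were whole multiples of 1 step (tolerance 1e-06), so read counts were recovered. The steps equalled DESeq2 size factors over all 20 libraries. Depth was 6.60 to 19.6 M reads, and 7 libraries had over 10% mitochondrial reads. Symbols and transcript lengths came from GENCODE (91.3% of genes matched, and all 48 members). Coordinates and promoters came from RefSeq, GRCm38.p6. No promoter entry was found for Ccna2, Cdc25c, Bora, Foxm1, Spc24, Aurkb, Incenp, Tpx2 and Kif20a.

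Groups followed the genotype labels. Replicate numbers follow the order of listing and pair no samples. The labels do not state that the hearts of a group came from separate litters. Values were tested as log2(value + 1) with limma 3.58.1 (trended, robust, 2-sided) for genes that reached 10 in 5 or more of the fitted libraries, with Benjamini-Hochberg adjustment over all genes tested and a threshold of 0.05. A fold change on this scale slightly understates the change of low genes. Dp3Tyb and Ts1Rhr were each compared with their WT littermates in 10 libraries. The average of both strains and the difference between them were fitted over 20 libraries. The procedure was tested on simulated data with larger changes than those of the members and without outlying libraries. That test does not show how many differences of the members' size would be missed. Alternatives were edgeR 4.0.16 and DESeq2 1.42.0 (R 4.3.3) on recovered reads, TMM scaling, pseudocounts of 0.1 and 5, no filter, array weights, mitochondrial share, sex or erythroid level as a term, leaving out libraries, and, added after seeing the data, the lung and foregut level as a term and removal of a transcript length trend. Motifs were searched on both strands as exact strings. The members and lists were chosen with earlier results of these data known. Every member may be named. Values in each heart are given for the members with the smallest and the largest p over both strains in each subgroup, the 3 largest differences and the smallest difference between the strains, and the 2 highest and 2 lowest means. Foxm1 and Tacc3 were added after their values were seen because their groups did not overlap. Other pathway genes are those that passed, or the 2 with the smallest p in each strain, and Mybl2 was also added after its value was seen.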

Additional observations from a re-analysis of the deposited data

Results flagged for a closer look

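A heart was listed here when its gap to the nearest other value exceeded 0.71 of the range of its group of 5, a limit that chance passes in about 1 of 20 groups. Of 76 group tests over the 18 genes given heart by heart and the relative level of all members, 19 passed (25%), and over all 48 members 49 of 192 did (25.5%). Of these 49, WT replicate 5 of the Dp3Tyb littermates accounted for 24 and Dp3Tyb replicate 5 for 20, with 4 in WT replicate 5 of the Ts1Rhr littermates and 1 in Ts1Rhr replicate 5.

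WT replicate 5 of the Dp3Tyb littermates was highest for Knl1 (1556 counts against 934 to 1065 in the others), Incenp (2023 against 1171 to 1237), Kif11 (3661 against 2533 to 2671), Kif23 (1826 against 1156 to 1299), Top2a (9157 against 7038 to 7414) and Mki67 (13711 against 6486 to 7428). Its relative level of all members was 0.36 against -0.07 to 0.04. It was lowest for Cenpa (1054 against 1495 to 1661) and Cdc20 (622 against 1058 to 1134). Dp3Tyb replicate 5 stood apart for many of the same genes, as the highest for Knl1 (1161 against 820 to 907), Incenp (1757 against 1176 to 1283), Kif23 (1471 against 1075 to 1187) and Mki67 (10501 against 6005 to 6467). It was the lowest for Cenpa (936 against 1397 to 1526), Cdc20 (523 against 997 to 1045) and Espl1 (376 against 692 to 768). These are the libraries with 19.5% and 15.5% mitochondrial reads, and the part of that share in each value was not tested.

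WT replicate 5 of the Ts1Rhr littermates was lowest for Bub1 (1251 against 1411 to 1432) and Kif11 (2481 against 2750 to 2843), and its relative level was -0.12 against 0.12 to 0.22. Its mitochondrial share was 5.84%.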

How the results depend on the processing

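Members called on the average of both strains numbered 0 as reported, 2 with DESeq2, 23 with array weights and 10 with the mitochondrial share as a term, and 0 under the other settings. With 1 library left out they numbered 0 in each of 20 fits. Members called in either strain alone, and between the strains, numbered 0 under every setting. The median log2 fold change stayed below 0 throughout, and with 1 library left out ranged from -0.19 to -0.08 for Dp3Tyb, from -0.20 to -0.10 for Ts1Rhr and from -0.17 to -0.11 on average. Members lower at an unadjusted p under 0.05 then ranged from 0 (without WT replicate 4) to 11 for Dp3Tyb and from 2 to 26 for Ts1Rhr (26 without WT replicate 5), against 9 and 8 as reported. On average of both strains they ranged from 12 (without Ts1Rhr replicate 5) to 29 against 20, with 13 without WT replicate 2 or mutant replicate 4 of the Ts1Rhr comparison. Over the same omissions the share of all genes lower at that p ranged from 0.714% to 1.92% for Dp3Tyb, from 1.53% to 5.78% for Ts1Rhr and from 3.03% to 5.99% on average. They changed by over 1.5 times for Dp3Tyb also without WT replicates 2 (2) and 5 (4) or mutant replicates 2 (2), 3 (3) and 4 (2), and for Ts1Rhr without WT replicates 1, 2 and 4 (3 each) and 3 (5) or mutant replicates 2 (19), 3 (2), 4 (3) and 5 (2).

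Log2 fold changes near 0 turned. In Dp3Tyb, Incenp was 0.000218 with array weights, 0.0646 with the erythroid term, 0.00653 without the libraries over 10% mitochondrial reads, 0.0316 with the lung term and -0.14 to 0.11 with 1 library left out. Pttg1 was 0.0837 with array weights, 0.0426 without those libraries, 0.0158 with the lung term and -0.0756 to 0.0355 with 1 left out. Cenpa was -0.22 to 0.0203 and Cdc20 -0.29 to 0.0664 with 1 left out. In Ts1Rhr, Cenpa was -0.0555, -0.000768, -0.0487 and -0.014 with the mitochondrial, erythroid and lung terms and the length trend removed, and -0.0489 to 0.0823 with 1 left out. Espl1 was -0.0212 with array weights, -0.102 with the mitochondrial term, -0.0954 with the erythroid term, -0.0242 without those libraries, -0.0555 with the lung term and -0.0929 to 0.0881 with 1 left out. With the mitochondrial term Kif23 was 0.0198 and Cdc20 -0.0196, and Kif2c was -0.0724 to 0.0166 with 1 left out. The Top2a difference between strains was -0.0292, -0.00539 and -0.00579 with the mitochondrial and erythroid terms and the length trend removed, and -0.0368 to 0.0722 with 1 left out. The 10 members above 0 in Dp3Tyb without WT replicate 5, in a fit that kept Dp3Tyb replicate 5, include Cenpe, at 0.09 against -0.16. The cause was not tested. No paired analysis was run, because no label ties a mutant heart to a WT heart. Any litter or handling shared by a mutant and a WT heart was therefore not used in the fits. Counting error can be as large as the spread between hearts for members of low count or low spread, such as Cdc25c, which had 55 reads in 1 library.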
